A study of Homo sapiens with 7 samples.

Results

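JAG1, JAG2, DLL1, DLL4, NOTCH1, NOTCH2, NOTCH3, HES1, HES4 and HEY1 are 10 genes of the Notch pathway, and they were described here by their mRNA level and by the histone marks on single nucleosomes at their loci in HepG2, an established human liver cancer cell line grown from a liver tumor and of hepatocyte lineage. Each gene was taken as the row of the expression table that holds its symbol, so the 10 genes are 10 of 30032 rows, of which 23303 have a symbol. The list was drawn up around JAG1, whose count of nucleosomes with 3 activation marks was already known to be among the highest, so that count is given as a description and supports nothing. All samples were freshly cultured HepG2 cells, and no treatment is given in their labels. RNA levels came from RNA-Seq, nucleosome positions from native MNase-Seq, and histone marks from crosslinked ChIP-Seq against the trimethylations H3K4me3, H3K27me3 and H3K9me3 and the acetylations H3K9ac and H3K27ac, which makes 7 assays with 1 sample each. No second cell type, treatment or replicate sample was analysed here, so nothing could be tested between conditions and no P value was computed.

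Notch signaling passes between touching cells. A ligand of the Jagged or Delta-like family on one cell binds a NOTCH receptor on its neighbor, the receptor is cut by ADAM and gamma-secretase proteases, and its freed intracellular part joins the DNA-binding protein RBPJ to switch on target genes such as the HES and HEY repressors. In the liver the pathway is best known for the formation of bile ducts, for which JAG1 and NOTCH2 are required.

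The marks have textbook roles: H3K4me3 lies at gene starts, H3K9ac and H3K27ac at active starts and enhancers, H3K27me3 at Polycomb-repressed genes and H3K9me3 in heterochromatin. A nucleosome position with H3K4me3, H3K9ac and H3K27ac together is called trivalent below. A gene's start is the 5′ end of its listed locus, and distances in bp run in the direction of transcription, negative before the start.

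Promoters of JAG1, HES1 and HES4 are shown because the results turn on them. Each is the stretch of 250 bases before the gene start in RefSeq. JAG1 had the most trivalent positions of the 10 genes, and HES1 and HES4 had the highest mRNA levels of the 3 target genes among them. The capitals mark TGGGAA, the core that RBPJ binds, searched on both strands (TTCCCA on the other). The build is GRCh38.p14, and the locations are chr20:10674000-10674249 on the minus strand, chr3:194135898-194136147 on the plus strand and chr1:1000098-1000347 on the minus strand.
JAG1: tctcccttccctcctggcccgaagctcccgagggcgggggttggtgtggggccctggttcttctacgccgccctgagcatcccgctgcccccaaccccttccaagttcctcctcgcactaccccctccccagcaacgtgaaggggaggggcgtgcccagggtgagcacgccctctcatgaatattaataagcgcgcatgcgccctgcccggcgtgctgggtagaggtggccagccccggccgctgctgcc
HES1: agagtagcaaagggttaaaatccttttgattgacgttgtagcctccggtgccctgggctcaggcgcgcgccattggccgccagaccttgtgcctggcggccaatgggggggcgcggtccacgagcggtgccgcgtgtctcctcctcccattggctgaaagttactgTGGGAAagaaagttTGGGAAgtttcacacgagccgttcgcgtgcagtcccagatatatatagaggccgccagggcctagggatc
HES4: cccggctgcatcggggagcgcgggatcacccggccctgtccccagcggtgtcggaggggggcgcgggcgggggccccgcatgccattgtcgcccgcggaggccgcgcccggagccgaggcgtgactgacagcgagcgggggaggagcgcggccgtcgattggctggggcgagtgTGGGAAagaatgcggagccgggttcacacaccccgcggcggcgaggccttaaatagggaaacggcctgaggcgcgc

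HES1 had 2 matches, from -84 to -79 and from -70 to -65, and HES4 had 1, from -76 to -71, all on the strand of the gene. Of 27305 promoters of the same length, 21.1% held at least 1 match and 2.92% held at least 2. The longer form GTGGGAA, which reads TTCCCAC on the other strand and whose matches are also matches of the core, was found once in HES1 and once in HES4, and in 5.46% of all promoters. No match to these letters was found in the 250 bases of JAG1, JAG2, DLL4, NOTCH1, NOTCH2 or NOTCH3. DLL1 and HEY1 were not searched. A match is a run of letters and says nothing of binding in these cells. The G and C content of the searched stretches was 59.2% in HES1, the lowest of the 8, and 81.6% in JAG2, the highest, against a median of 58.0% over all promoters.

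The library carried hepatocyte markers, and also most of the bile duct cell markers looked at. All 8 hepatocyte markers had an FPKM (fragments per kilobase of transcript, scaled to the mapped fragments of the library) of 64.6 or more, up to 10011 for ALB. Of 6 bile duct cell markers 4 had at least 1 FPKM: SPP1 with 436, KRT19 with 110, EPCAM with 96.9 and SOX9 with 39.8. KRT7 was at 0.109 and CFTR was listed at 0. Of 5 endothelial markers none reached 1 FPKM, with CDH5 highest at 0.693. Among 5 blood markers LYZ had 1173 and CD14 had 2.53, with PTPRC and CD3E listed at 0, and among 4 stellate and fibroblast markers only PDGFRB passed, with 2.005, while DES was listed at 0. The table has 2 FPKM columns of the sample, called run 1 and run 2 here. Whether they are separate cultures or repeat runs of 1 library is not given. The median absolute log2 ratio of the runs was 0.06 for named genes at 5 to 50 FPKM, 0.13 at 1 to 5 FPKM and 0.53 at 0.05 to 0.5 FPKM, and 95% of genes stayed under 0.21, 0.50 and 1.98 respectively. Levels below 0.5 FPKM were thus poorly resolved. Read counts stand beside no FPKM value, so the depth behind each is unknown.

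One ligand, one receptor and the target genes were expressed. JAG1, NOTCH2, HES1, HES4 and HEY1 had a mean FPKM of at least 1, and JAG2, DLL1, DLL4, NOTCH1 and NOTCH3 were all below 0.5. The count of 5 of 10 stands beside 51.8% of 20261 named loci at or above 1 FPKM, so the genes as a group were not set apart by it. Of the 10, 2 were under 0.1 FPKM, JAG2 and DLL1, against 36.8% of named loci. In a bulk library, fewer cells that make an mRNA and less of it per cell cannot be told apart.

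Among the ligands, JAG1, the Jagged ligand mutated in Alagille syndrome, was listed at 26.7 FPKM in run 1 and 26.5 in run 2, higher than 86.8% of named loci. JAG2, the other Jagged ligand, was at 0.0667 and 0.0972. DLL4, the Delta-like ligand known from sprouting blood vessels, was at 0.104 and 0.109. DLL1, another Delta-like ligand, was at 0.0625 in run 1 and listed at 0 in run 2. JAG1 therefore stood far above the other ligands in both runs, and the order of JAG2, DLL4 and DLL1 lay in a range where runs of 1 gene often differed as much.

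Among the receptors, NOTCH2 had the highest level with 3.85 FPKM in run 1 and 3.20 in run 2, higher than 56.8% of named loci. NOTCH1 was at 0.329 and 0.396. NOTCH3, known from vascular smooth muscle, was at 0.161 and 0.0892. NOTCH2 was 9.72 times NOTCH1 by the means, and the runs of these receptors did not overlap. NOTCH4 has no row of its own, since its symbol is listed with AGER, GPSM3 and PBX2, so no level is given for it.

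The target genes encode basic helix-loop-helix repressors. HES1, a widely used readout of the pathway, was at 14.1 and 15.6 FPKM. HES4, a close relative of HES1 in humans, was at 14.5 and 14.2. The runs of HES1 and HES4 overlapped, and their means differed by a factor of 1.04. HEY1 was lower, at 1.37 and 1.31, near the middle of all named loci (49.9% were lower). From high to low, the order of the means was JAG1, HES1, HES4, NOTCH2, HEY1, NOTCH1, NOTCH3, DLL4, JAG2 and DLL1. Neighbors whose runs overlapped were HES1 and HES4, and NOTCH3 and DLL4.

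**Figure D1:**
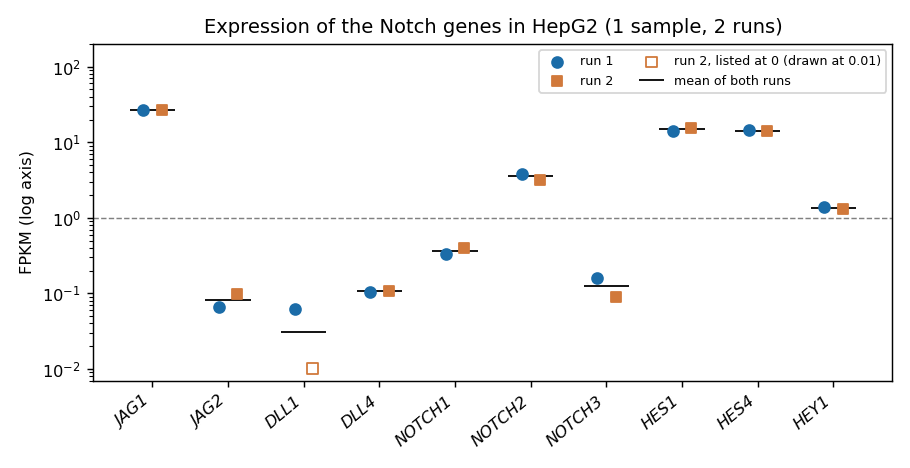
FPKM of each gene on a log axis, with run 1 as circles, run 2 as squares (open where listed at 0 and drawn at 0.01) and their mean as a bar; the dashed line is 1 FPKM. JAG1, HES1 and HES4 lie above 10 FPKM in both runs, and JAG2, DLL1, DLL4, NOTCH1 and NOTCH3 lie below 0.5.

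Over the 10 loci extended by 10 kb on each side, 95 of 2791 nucleosome positions carried a mark. Of these, 32 were trivalent, 26 had H3K4me3 alone, 12 had H3K4me3 and H3K9ac, 10 had H3K27ac alone, 5 had H3K9ac and H3K27ac, 3 had H3K4me3 and H3K27ac, 4 had H3K27me3 and 3 had H3K9me3. The windows differ in length with the genes, from 104 positions at HES1 to 828 at NOTCH2. The share of marked positions over the whole genome was not computed here, so whether 95 is many is unknown. H3K4me3 was found in the windows of 9 of the 10 genes, against 65.5% of analysed genes, and trivalent positions in those of 6, against 52.5%. JAG1, chosen for its trivalent count, is in both counts and holds 12 of the 32 trivalent positions. Leaving out positions nearer to another named start, H3K4me3 was found at 9 genes and trivalent positions at 5, since the trivalent position of DLL4 was nearer to CHAC1. JAG2 had no mark at all.

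**Figure D2:**
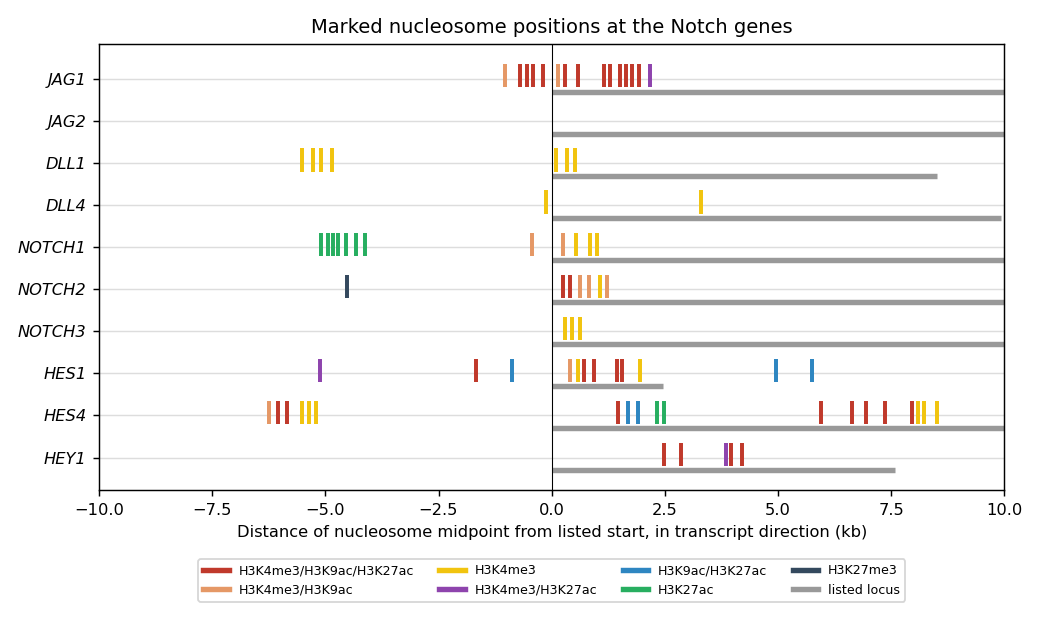
Marked nucleosome positions from 10 kb before to 10 kb after the listed start of each gene, one vertical tick per position and one color per combination of marks; the grey bar is the listed locus, cut at 10 kb. The ticks of JAG1 cluster around the start, those of HEY1 lie inside the listed locus, those of HES4 lie inside it and near ISG15 upstream, and JAG2 has none.

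At JAG1 (hg19, chromosome 20, 10618332 to 10654694, minus strand), 15 of 325 positions in the window were marked, which is 4.62% (exact Clopper-Pearson 95% interval 2.61 to 7.50, counting error only, with positions taken as independent). All 15 lay in a single stretch from 10652442 to 10655786, in which 15 of 16 positions were marked. Read along the gene, the stretch began with H3K4me3 and H3K9ac at -1022, was trivalent at -699, -545, -409 and -197, had H3K4me3 and H3K9ac again at 140, and then held 8 trivalent positions in a row from 303 to 1931. It ended with H3K4me3 and H3K27ac at 2183.

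The trivalent positions of JAG1 thus lay on both sides of the start, 4 before it and 8 after it. These 12 within 2 kb were the highest count among 13265 genes with coordinates of their own, reached by 5 genes (0.0377%), and 12 genes just below had 11. The nearest other named start, that of C20orf94, was at least 236855 bp from each of the marked positions. A trivalent position with its midpoint at -197 was the only nucleosome position that overlapped the 250 bp before the listed hg19 start. That stretch and the printed promoter are counted from starts of different builds and were not aligned to each other.

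The other ligands carried no trivalent position in the 2 kb around their starts. JAG2 (chromosome 14, 105607567 to 105635161, minus strand) had 0 of 241 positions marked in its window (upper end of the exact interval 1.52%, with positions taken as independent). Such a window without any mark was found at 12.9% of analysed genes, and at 27.3% of those under 0.1 FPKM. Its 14 positions within 2 kb of the start carried called nucleosomes, all of them unmarked.

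DLL1 (chromosome 6, 170591294 to 170599811, minus strand) had H3K4me3 alone at 85, 335 and 505, just inside the gene, and no acetylated position in its window. Another 4 positions with H3K4me3 alone, from -5520 to -4848, lay inside FAM120B, a gene of the opposite strand that is listed from 170600160, next to the start of DLL1. FAM120B had 9.82 FPKM in run 1 and 9.41 in run 2, and the marks of these neighboring starts cannot be told apart by gene. DLL4 (chromosome 15, 41221531 to 41231452, plus strand) had H3K4me3 alone at -135 and at 3310. Its remaining 4 marked positions, with 1 trivalent position at 12250 among them, lay beyond its 3′ end and nearer to the start of CHAC1.

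The receptor loci were marked around the start in 3 different ways. NOTCH2 (chromosome 1, 120451895 to 120612430, minus strand) had 6 of 6 positions marked from 249 to 1229, trivalent at 249 and 414, with H3K4me3 and H3K9ac at 624, 829 and 1229 and with H3K4me3 alone at 1064. All lay after the start, and none of the 9 positions in the 2 kb before it or up to the first trivalent one was marked. NOTCH2 was also the only gene of the 10 with H3K9me3, at 3 single positions inside the gene at 18289, 46474 and 102459 bp, the last of them nearer to the start of ADAM30, against 28.9% of analysed genes with at least 1 such position in their own windows. It is the longest of the 10 loci, with 160536 bp.

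NOTCH1 (chromosome 9, 139388896 to 139440490, minus strand) had 5 of 5 positions marked from -433 to 991, with H3K4me3 and H3K9ac at -433 and 247 and H3K4me3 alone at 529, 851 and 991. No trivalent position lay in its window. From -5093 to -4133, all 7 positions carried H3K27ac alone, in a stretch of 1100 bp from 139444554 to 139445653. The stretch falls within unnamed loci listed from 139440603 to 139447425, whose FPKM was at most 0.0566 in either run. H3K27ac was at 1 more position, 25364 bp inside the gene, and absent from the listed marks at the start. NOTCH3 (chromosome 19, 15270365 to 15311796, minus strand) had H3K4me3 alone at 285, 450 and 620 and again at 19893, and no acetylation.

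The starts of the 3 receptor genes also had the widest spaces between nucleosome positions. Within 2 kb of the start, the largest distance between neighboring midpoints was 935 bp at NOTCH2, from -686 to 249, 775 bp at NOTCH3, from -490 to 285, and 680 bp at NOTCH1, from -433 to 247. Over 13180 analysed genes with a value the median was 412 bp, and 95.4%, 91.3% and 86.8% of genes had a narrower widest space than NOTCH2, NOTCH3 and NOTCH1. The widest space spanned the start at 33.2% of these genes, at 47.7% of those with at least 1 FPKM and at 17.3% of those under 0.1. Among the 10 it did so at NOTCH1, NOTCH2, NOTCH3 and HES4, and for HES4 this depends on the listed 5′ end, from which most of its marks lay away. The called positions have no occupancy, and a space may also be a place where none was called.

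Among the target genes, HES1 (chromosome 3, 193853934 to 193856396, plus strand) had 12 of 104 positions marked, or 11.5% (6.11 to 19.3). Within 2 kb of the start 9 of 15 positions were marked and 5 were trivalent. One of these lay at -1678, followed by H3K9ac and H3K27ac at -873. Inside the gene came H3K4me3 and H3K9ac at 399, H3K4me3 alone at 577, trivalent positions at 722, 942, 1447 and 1555 and H3K4me3 alone at 1957. Between -873 and 399 the 4 mapped positions, at -633, -498, -353 and 122, were all unmarked.

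No nucleosome position overlapped the 250 bp before the listed start of HES1, where the TGGGAA matches lie in the RefSeq promoter printed above. For HES1 too, these starts were not aligned between the builds. No position overlapped the 250 bp before the listed starts of NOTCH1, NOTCH2 and NOTCH3 either. The share of all analysed genes without a position there was not counted, so whether this sets these genes apart is unknown. Outside this core, HES1 had H3K4me3 with H3K27ac at -5118 and H3K9ac with H3K27ac at 4949 and 5752, and no other named start was nearer to any of its marked positions.

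HES4 (chromosome 1, 931285 to 943127, minus strand) had the most marked positions, 19 of 146 or 13.01% (8.02 to 19.6), but only 3 of them in the 2 kb around the listed start. Its listed locus spans 11843 bp. Whether the listed 5′ end is the start of HES4 was not checked, so the distances given here may not be those from its true start. The 2 groups inside it were a trivalent position at 1466, H3K9ac with H3K27ac at 1691 and 1916 and H3K27ac at 2336 and 2491, and then a second group from 5946 to 8514 in which 8 of 9 positions were marked. That second group was made of 5 trivalent positions followed by 3 with H3K4me3 alone. A further 6 marked positions, from -6239 to -5212, lay within 519 bp of the start of ISG15 and nearer to it than to HES4.

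HEY1 (chromosome 8, 80676245 to 80683823, minus strand) had 0 of 21 positions marked in the 2 kb around its listed start (upper end of the exact interval 16.1%, with positions taken as independent). Inside the locus, from 2487 to 4197, 5 of 6 positions were marked, 4 as trivalent and 1 with H3K4me3 and H3K27ac. HEY1 shares its listed coordinates with an unnamed locus, so the listed end may not be the start of HEY1, and it was left out of the counts over analysed genes. At both HES4 and HEY1, a count around the listed start missed most of the trivalent positions in the locus.

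At least 3 trivalent positions within 2 kb of the start were found at JAG1 and HES1, 2 of the 9 genes with coordinates of their own, against 27.9% of analysed genes and 56.4% of those with at least 1 FPKM. When the densest 4 kb of each window was taken in place of the start, a measure added after the positions of HES4 and HEY1 were seen, JAG1 had 12 trivalent positions, HES1 and HES4 had 5 each and HEY1 had 4, so that 4 of 10 genes had at least 3, against 36.7% of analysed genes. JAG1 was chosen for its count, and without it 1 of 8 genes and 3 of 9 genes, respectively, had at least 3. Of the 5 expressed genes, NOTCH2 was the only one with fewer than 3 trivalent positions by the densest 4 kb, with 2. The share of expressed analysed genes by this measure was not computed. HES4 and HEY1 had led to the measure, and JAG1 was chosen for its count, so this count of expressed genes supports nothing.

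**Figure D3:**
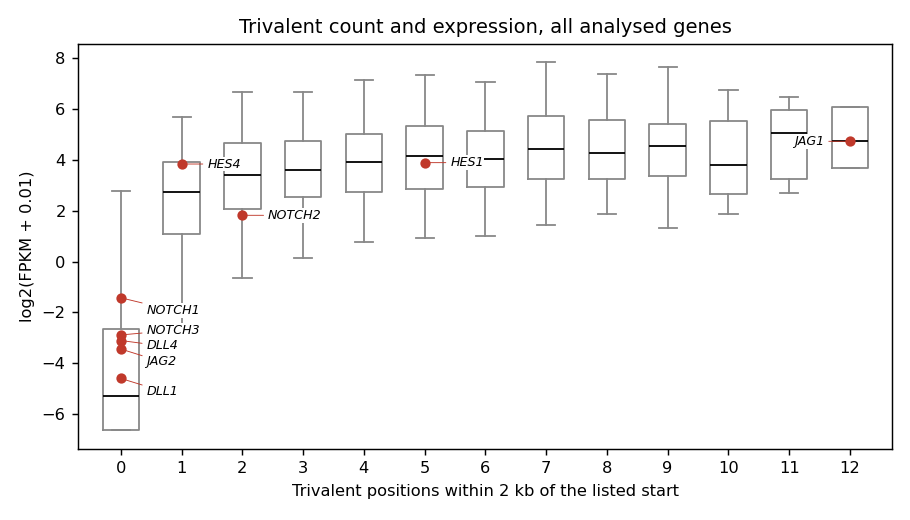
Number of trivalent positions within 2 kb of the listed start against log2(FPKM + 0.01) for the 13265 analysed genes, as boxes (median and quartiles, whiskers at the 5th and 95th percentiles), with the 9 Notch genes of that set as red points. JAG1 lies at 12 trivalent positions, HES1 at 5, NOTCH2 at 2, HES4 at 1, and the other 5 genes at 0.

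The median FPKM of analysed genes was 0.0153 with 0 trivalent positions, 6.59 with 1, 10.5 with 2 and 17.6 with 5. HES1 with 14.9 FPKM and NOTCH2 with 3.52 were below the medians for their counts, while HES4 with 14.3 was above that for its single one, a count that depends on the listed start. HES1 and HES4 lay between the quartiles for their counts, 7.19 to 39.9 and 2.13 to 15.2 FPKM. NOTCH2 lay below the lower quartile for its count, 4.17 FPKM. JAG1 was the gene that the choice of the list rested on and is not compared here.

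Most of the genes with low expression had H3K4me3 near the start. Of the 5 genes under 0.5 FPKM, DLL1, DLL4, NOTCH1 and NOTCH3 had at least 1 H3K4me3 position within 2 kb of the start, 4 of 5, against 16.8% of the 6530 analysed genes under 0.5 FPKM and 92.4% of the expressed ones. None of the 5 had a trivalent position there, against only 3.29% of genes at that level, so this does not set the 5 apart. Of analysed genes under 0.1 FPKM, 98.2% had none. Only NOTCH1, the highest of the 5, had H3K9ac there. The H3K4me3 positions near the start of DLL1 lay 434 to 854 bp from the start of FAM120B and cannot be told apart by gene. Of the 6530 genes under 0.5 FPKM, 5499 were under 0.1, against 2 of the 5 (JAG2 and DLL1), so the 2 sets differ in level. No H3K27me3 lay inside any of the 10 loci. The share of analysed genes without it inside the locus was not counted, so this does not set the 10 apart. In the windows extended by 10 kb it was found at 3 genes (30.7% of analysed genes had it): at 52049 and 58099 bp from the start of NOTCH1, which is beyond its 3′ end and nearer to SEC16A, at -4531 of NOTCH2, and at 14070 of HEY1, also beyond the 3′ end. These are counts in 1 library per mark, and no test bears on them.

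The wider pathway list held 71 genes in 9 roles, 67 of them with a row of their own, and 44 of these 67 had at least 1 FPKM, against 51.8% of named loci. Of 9 cleavage proteases and their subunits 8 passed, with a median of 28.02 FPKM, from APH1B at 0.812 to APH1A, a gamma-secretase subunit, at 64.4. Of 9 nuclear activators 8 passed, with SNW1, a nuclear cofactor, highest at 28.3 and MAML3, a coactivator of the Mastermind family, lowest at 0.340. RBPJ itself was at 16.5 in run 1 and 17.0 in run 2, with 5 trivalent positions within 2 kb of its start.

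Of 13 corepressors 10 passed, from TLE2 at 0.0515 to HDAC1 at 50.7. Among the Fringe and other glycosyltransferases that modify the receptors, 3 of 4 passed, with RFNG at 34.9 and LFNG at 0.379. The ligand ubiquitin ligases had 2 of 4, with MIB1 at 17.1 and NEURL1, listed under its older symbol NEURL, at 0.0826. Of 8 genes of receptor turnover and inhibition 6 passed, from DTX1 at 0.0493 to DLK1, a Delta-like protein of fetal liver without the usual receptor-activating domain, at 165.

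By contrast, 1 of 5 ligands, 1 of 3 receptors and 5 of 12 HES, HEY and other target genes passed, with medians of 0.106, 0.362 and 0.469 FPKM. The targets ran from HES7 at 0.0124 to HES6, a HES relative that can act against HES1, at 41.1. The difference in medians between the roles is a description of 1 sample, and the ligands, receptors and targets include the 10 genes chosen with earlier results known.

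**Figure D4:**
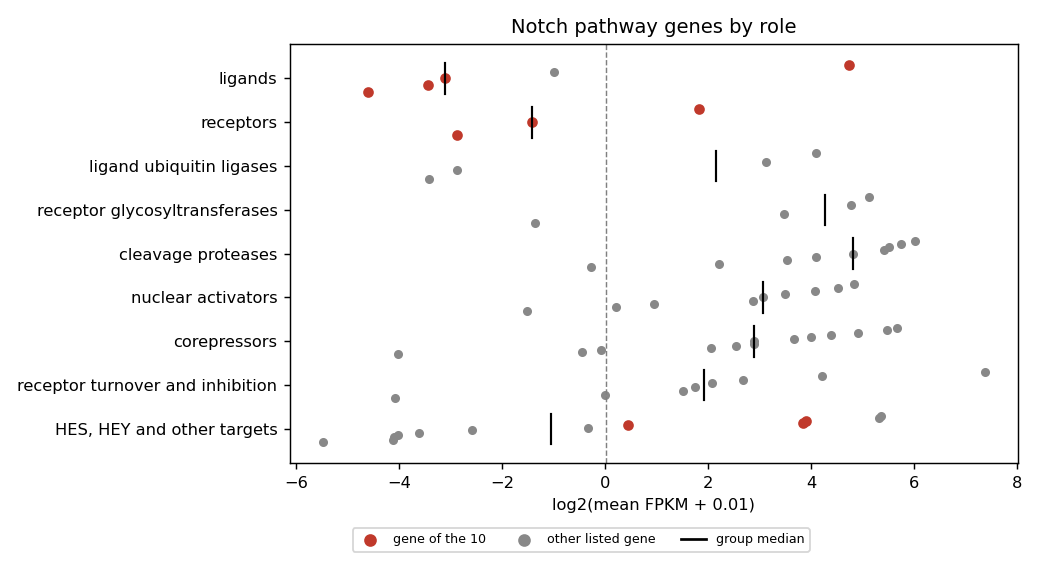
log2(mean FPKM + 0.01) of the 67 Notch pathway genes with a row of their own, grouped by role, with the 10 genes in red, the others in grey, a black bar at each group's median and a dashed line at 1 FPKM. The proteases have the highest median, 28.02 FPKM, and the ligands the lowest, 0.106.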

How the data were processed

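The authors aligned the ChIP-Seq and MNase-Seq reads (BWA and hg19, per the processing notes), called native nucleosome positions with DANPOS and called histone peaks at these positions with NUCLIZE against input DNA. They deposited 14217405 positions and 319086 peaks as coordinates with identifiers, without heights or read counts, so depth per position is unknown. RNA was depleted of ribosomal RNA before library preparation, and the RNA-Seq values were deposited by the authors as FPKM in 2 columns of 1 sample. Their notes name TopHat2 2.1.0, Bowtie, HOMER 4.7 and edgeR, without saying which wrote the table, and its columns for the authors' own comparison of the runs were not used. Values are means of both columns.

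Each peak was given to the position it overlapped most, which was the one of its identifier for all 319086. Strand came from locus numbering and equaled the RefSeq strand for 8396 of 8426 analysed genes and 8 of 8 Notch genes. Analysed genes (13265) have a single unshared symbol and unshared coordinates. Positions were placed by their midpoint. Intervals are exact binomial ones at 95% and cover counting error only. They take neighboring positions as independent, although marked positions often lay in runs, so they may be too narrow. The 10 genes, the pathway and marker lists and the rules for naming genes (all 10, and the highest and lowest of each role, with neighbors and RBPJ added after values were seen) were chosen with earlier results of these data known. Promoters are from RefSeq (GRCh38.p14), with entries for 8 of the 10 genes, and no hg19 position was converted to it. Counting was tested on simulated data. Alternatives were other FPKM limits, each column alone, windows of 1 and 5 kb, flanks of 0 and 20 kb, any overlap, only positions nearest the gene's own start, and the densest 4 kb. Tables were read with pandas 2.3.3 and numpy 2.4.6, intervals came from scipy 1.17.1 and plots from matplotlib 3.10.9, under Python 3.11.15.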

Additional observations from a re-analysis of the deposited data

How the results depend on the processing

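The count of expressed genes, 5 of 10, was 8 at a limit of 0.1 FPKM and 3 at a limit of 5, and 5 with either run alone. The count with at least 3 trivalent positions near the start, 2, was 1 within 1 kb, 3 within 5 kb, 2 with any overlap and 4 by the densest 4 kb. The count with H3K27me3 in the window, 3, was 0 without flanks and 4 with 20 kb. The 32 trivalent positions in the windows ranged from 24 without flanks to 44 with 20 kb, and were 29 when positions nearer to another named start were left out. Of the pathway genes, 44 passed at 1 FPKM, 57 at 0.1 and 35 at 5. The median percentile of the 10 genes by FPKM was 46.5 among named loci, 50.8 among genes with unshared coordinates, 46.6 by run 1 and 46.7 by run 2. No paired analysis was possible because each assay has 1 sample and no groups were compared. The runs differed most at levels under 0.5 FPKM, where the part of depth was not tested, and with 1 library per mark a missing peak is not evidence that a mark is absent.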

Other observations

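Among the other genes of the pathway list, 34 had coordinates of their own, and 13 of them had at least 3 trivalent positions within 2 kb of the start, against 27.9% of analysed genes. The next counts include the Notch genes, with JAG1 chosen for its count. Of 24 expressed pathway genes, 14 had at least 3 trivalent positions and 2 had none, where 56.4% and 15.2% of expressed analysed genes did. The 9 pathway genes under 0.1 FPKM all had 0, as had 98.2% of analysed genes at that level. SOX9 and HEY2 were picked out after their values were seen. SOX9, a transcription factor of bile duct cells and a Notch target, had 9 trivalent positions and 12 positions with H3K4me3 near its start at 40.1 FPKM in run 1 and 39.5 in run 2. HEY2, a relative of HEY1, had 9 positions with H3K4me3 and no trivalent position at 0.0358 and 0.0611 FPKM, with 2 positions carrying H3K27me3 in its window.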
